A study of Mus musculus with 18 samples.

Results

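Ribosome biogenesis genes encode the machinery that transcribes, modifies, cuts and folds ribosomal RNA and assembles it with proteins, most of it in the nucleolus. The genes described here are 44 such genes chosen by name, and each gene was represented by its array probe set with the highest mean level. Of the 44 genes 43 were measured, among 20233 genes in all, and Ddx18 was not analysed here because no probe set matched it. A group of 6 genes had over 1 probe set, and in 4 of them the probe sets held different values.

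The arrays come from secondary reprogramming, in which doxycycline switches on factors (Oct4, Sox2, Klf4 and c-Myc) that mouse fibroblasts already carry, and the cells become induced pluripotent stem cells (iPSC). There were 9 groups of 2 arrays each. The genetic background of all cells held Rosa26-M2rtTA, the doxycycline-dependent transactivator, and the reporter Oct4-GFP. Day 0 was mouse embryonic fibroblasts in a fibroblast medium, taken at passage 4 from E13.5 embryos that had been made wholly from iPSC by tetraploid complementation. The groups of days 1, 3, 5, 7, 11 and 15 were bulk cells in embryonic stem cell medium with 1 µg/ml doxycycline and 50 µg/ml vitamin C. Day 18 was the cells that remained 3 days after both additives had been withdrawn. The iPSC group was 1 established secondary line in the stem cell medium plus 2i (a Gsk3 and a Mek inhibitor). Whether its arrays came from cells on feeders is not in the labels. Every comparison of days 1 to 15 with day 0 therefore holds the change of medium and the vitamin C as well as the factors. The comparison of iPSC with day 0 holds the established line and the medium with 2i. In day 18 the withdrawal, the later day and the survival of some of the cells cannot be told apart.

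Ribosome production starts with RNA polymerase I, which transcribes the long ribosomal RNA precursor. Small nucleolar ribonucleoproteins (snoRNPs) then direct its methylation (box C/D) and pseudouridylation (box H/ACA), and separate sets of assembly factors shape the small and the large subunit before export to the cytoplasm. Myc is known as an activator of ribosome production, both through RNA polymerase I and through the genes of assembly factors, and binds the sequence CACGTG, called the E-box. It is also 1 of the induced factors here, so the level of each gene was set beside that of Myc.

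Values are log2 expression levels, and a difference of 1 is a 2-fold change. The 2 arrays of a group correlated over all genes at r = 0.997 to 0.998, except on day 18 (r = 0.993), where 264 genes were more than 2-fold apart, against 5 to 16 genes in the other groups. Over the 43 ribosome biogenesis genes the median gap between the arrays of a group was 0.03 to 0.09, and 0.09 on day 18. The widest gap was that of Rrs1 in iPSC, at 0.60. The labels do not say whether the 2 arrays of a group came from separate cultures, so the p-values here cover no more than the spread between arrays, which may be technical. The arrays were normalized to a common distribution, so a shift shared by most genes would not be seen. In bulk samples, fewer cells of a type and less RNA per cell cannot be told apart. Of the 15 fibroblast markers 0 lay under the background level on day 0, where their array medians were 11.16 and 11.20. Of the 14 pluripotency markers 0 lay under it in iPSC, where their array medians were 10.61 and 10.68. The defining markers of each label were thus present. The iPSC arrays held fibroblast markers too: 0 of the 15 lay under background there and their array medians were 8.77 and 9.09, against 6.90 and 6.93 on day 15. Col1a1 and Postn, both matrix genes of fibroblasts, averaged 11.53 and 11.44 in iPSC. Y-linked genes differed between groups, also within the induction: Uty averaged 5.85 ± 0.18 on day 3, 8.27 ± 0.08 on day 5, 5.29 ± 0.08 on day 7 and 6.51 ± 0.11 on day 11 (SD, n = 2 each). Its day 7 mean lay just under the background level. Whether all groups came from the same starting cells is not in the labels, and the part of this in the comparisons between groups was not tested.

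The promoters of the genes were searched for the E-box that Myc binds. RefSeq promoter windows (mouse build GRCm38.p6, 250 bases before to 50 bases after the transcript start) were found for 38 of the 43 genes, with 41 windows. The palindrome CACGTG reads the same on both strands, and it stood in the windows of 10 of the 38 genes (26.3%), against 9.50% of the 15703 genes on the arrays that had a window. Among other ribosome biogenesis genes the share was 16.9% (14 of 83), and among cytosolic ribosomal protein genes it was 5 of 37. Within the 250 bases before the start alone it was 4 of 38 genes (10.5%), which is near the 8.13% of all genes. The related sequence CACGCG, searched on both strands and with no overlap with CACGTG, was in 26.3% of the genes' windows, against 14.9% for all genes. These are counts of letters in windows that were not matched for base composition, and no binding was measured. The 30-base stretches around the 11 copies of CACGTG are shown because they make up the count of 10 genes, and they were picked after the search. The motif is in capitals, each stretch reads 5′ to 3′ along the gene's strand, and coordinates are those of GRCm38.p6.
Imp4, chr1:34439696-34439725, plus strand: acggtcttagacCACGTGacatcccaaatc
Ltv1, chr10:13193092-13193121, minus strand: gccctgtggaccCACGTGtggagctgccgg
Nop2, chr6:125131811-125131840, plus strand: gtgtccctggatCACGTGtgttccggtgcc
Pes1, chr11:3963965-3963994, plus strand: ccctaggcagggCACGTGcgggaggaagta
Pno1, chr11:17211540-17211569, minus strand: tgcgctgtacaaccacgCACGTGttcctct
Rrn3, chr16:13780472-13780501, plus strand: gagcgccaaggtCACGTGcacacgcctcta
Rrn3, chr16:13780639-13780668, plus strand: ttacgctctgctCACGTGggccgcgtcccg
Tsr1, chr11:74898092-74898121, plus strand: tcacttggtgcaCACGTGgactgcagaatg
Utp18, chr11:93885769-93885798, minus strand: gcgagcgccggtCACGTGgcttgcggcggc
Utp20, chr10:88826765-88826794, minus strand: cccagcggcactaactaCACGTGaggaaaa
Wdr43, chr17:71616220-71616249, plus strand: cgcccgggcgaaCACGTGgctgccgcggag

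Of these copies 6 lay in the first 50 transcribed bases, in Ltv1, Pes1, Pno1, Tsr1, Utp20 and Wdr43. Counted from base 1 at the transcript start, their first bases were at 29 in Ltv1, 3 in Pes1, 38 in Pno1, 25 in Tsr1, 38 in Utp20 and 18 in Wdr43. That stretch held the motif in 14.6% of the 41 windows, against 1.15% of the 19281 windows of all genes on the arrays. The other 5 copies lay before the start, at -215 and -48 in Rrn3, -121 in Imp4, -60 in Nop2 and -20 in Utp18.

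**Figure D1:**
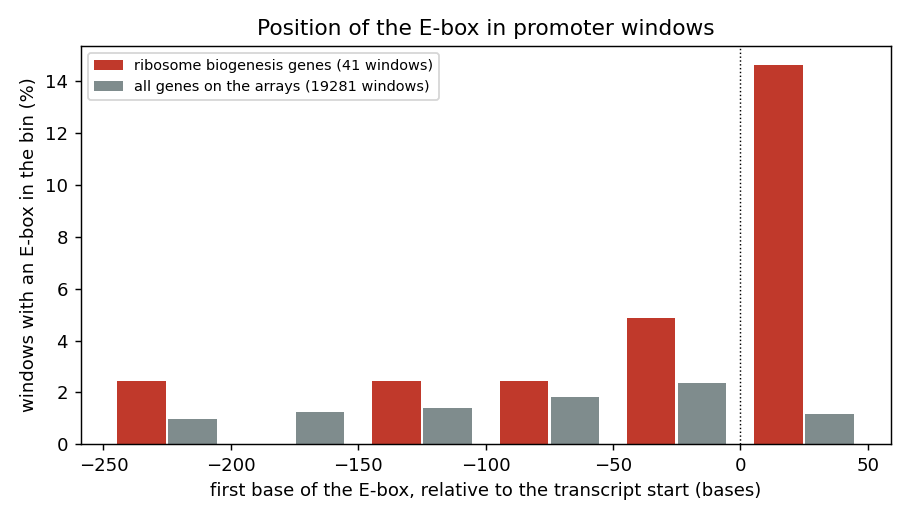
Share of promoter windows (%) whose E-box begins in each 50-base bin, by distance from the transcript start in bases, for the ribosome biogenesis genes (41 windows) and for all genes on the arrays (19281 windows). In the 50 bases after the start the bars stand at 14.6% for the ribosome biogenesis genes and 1.15% for all genes.

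The comparison of day 1 with day 0 shows where ribosome production genes stood after a day of induction, change of medium and vitamin C together. They rose almost without exception: 42 of the 43 were called higher on day 1 and 0 lower, where called means an adjusted p under 0.05 (limma, Benjamini-Hochberg over all genes) and a log2 difference of at least 1. Over all genes 7.62% were called higher and 6.54% lower. The median difference of the 43 genes was 1.52, a 2.87-fold rise, against 0.01 for all genes. At an unadjusted p under 0.05, 0 of the genes were lower. The gene that was not called, Rrs1, a large subunit assembly factor, stood at 8.43 and 8.06 on day 1, against 7.74 and 7.73 on day 0. Its difference of 0.50 ± 0.19 (SE) passed the test without reaching 2-fold (limma adjusted p = 0.0436). Markers of cell types moved on day 1 as well. Of the 15 fibroblast markers 8 were called lower and 0 higher, among them Lum (-5.90), Pdgfrb (-3.77), Pdgfra (-3.69) and Col3a1 (-3.12), and their array medians were 9.48 and 9.49 on day 1, against 11.16 and 11.20 on day 0. Of the 12 keratinocyte markers Dsp (2.88) and Krt14 (1.36) were called higher and Sprr1a (-1.09) lower, with 5 under background on day 1, against 8 on day 0. The part of these changes in the rise of the ribosome biogenesis genes was not tested.

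**Figure D2:**
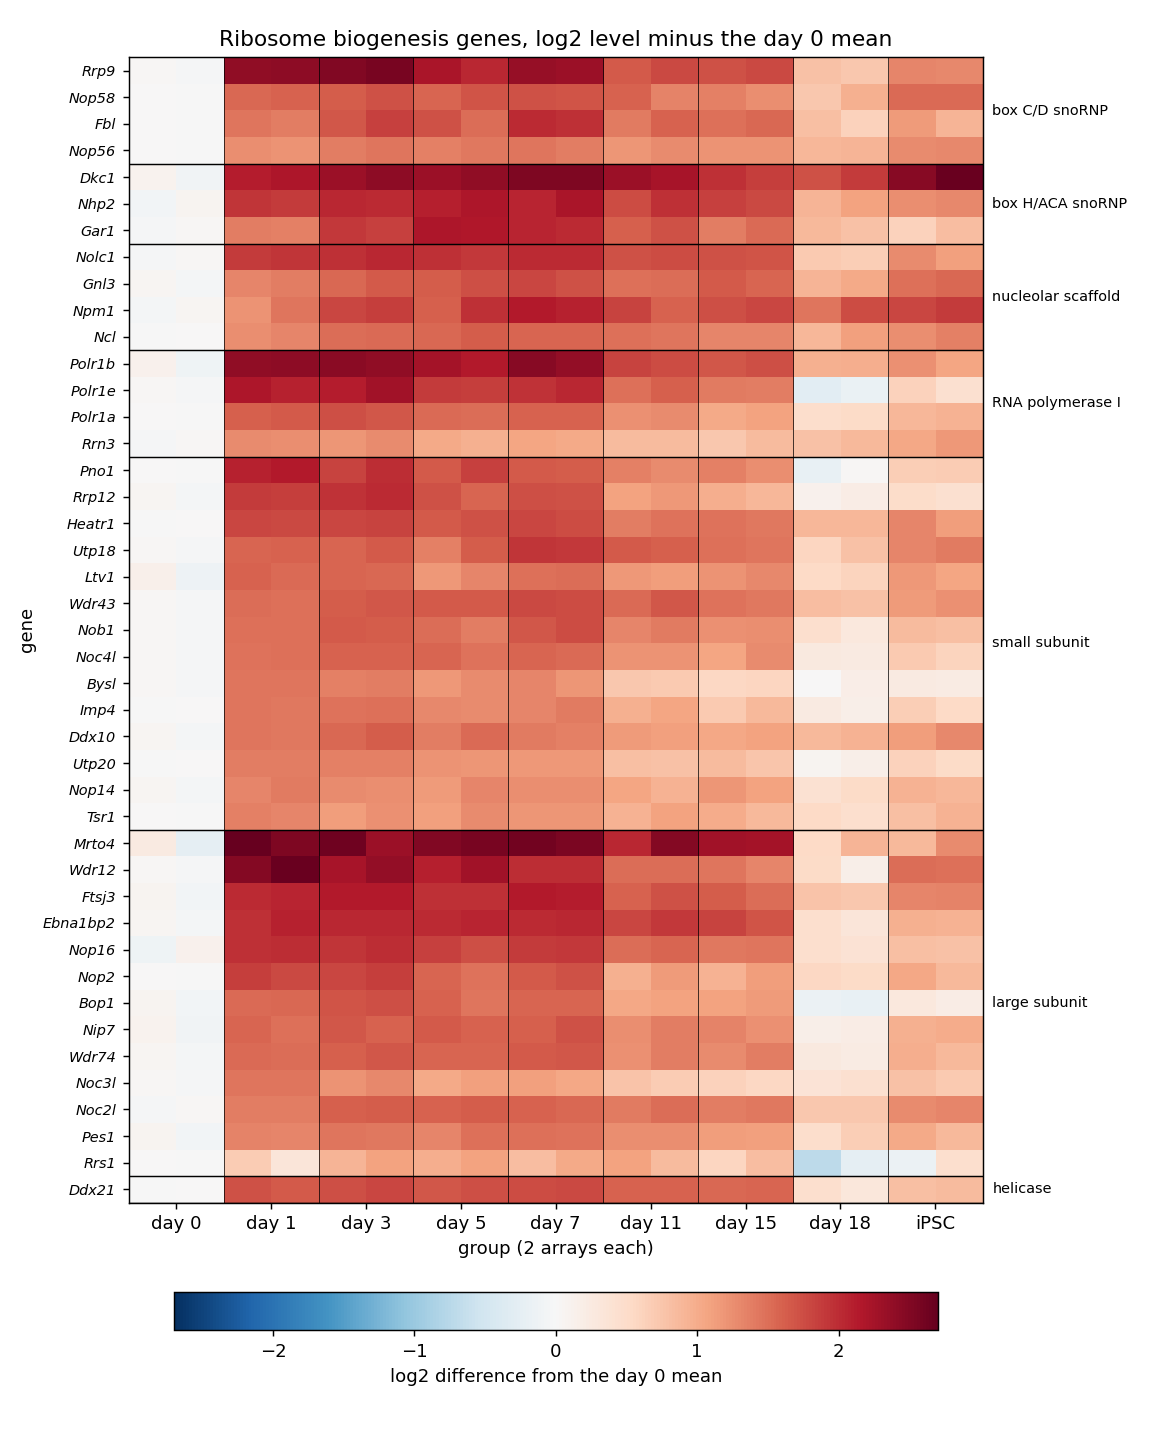
Log2 level of each of the 43 genes on each of the 18 arrays, minus the gene's day 0 mean, with genes in rows grouped by role and arrays in columns by group, in time order with iPSC last. The columns of days 1 to 15 are high for nearly all genes, the day 18 columns are much closer to day 0 for most genes, and the iPSC columns lie between.

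All 4 RNA polymerase I genes were called on day 1, with rises from 1.27 to 2.41. Polr1b, which encodes the second-largest subunit, had 11.19 and 11.21 on day 1, against 8.91 and 8.67 on day 0. This is a difference of 2.41 ± 0.08 (SE), or 5.32-fold (limma adjusted p = 5.02e-11). The largest subunit gene Polr1a rose by 1.63 and the subunit gene Polr1e by 2.13. Rrn3, the initiation factor that brings the polymerase to its promoter and whose window holds 2 E-boxes, had 11.08 and 11.06 on day 1, against 9.76 and 9.84 on day 0. It rose by 1.27 ± 0.07 (SE), and over the 9 groups it had the smallest range of the 43 genes. The windows of Polr1a, Polr1b and Polr1e held 0 E-boxes.

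The 7 snoRNP genes were all called on day 1. In the box C/D group, Rrp9, a protein specific to the U3 snoRNP that acts in small subunit processing, had 10.30 and 10.33 on day 1, against 7.94 and 7.89 on day 0, a rise of 2.40 ± 0.07 (SE). The methyltransferase gene Fbl (fibrillarin) and the core protein genes Nop56 and Nop58 rose by 1.41, 1.23 and 1.57. In the box H/ACA group, Dkc1 encodes dyskerin, the pseudouridine synthase, which is also part of telomerase. It had 9.79 and 9.84 on day 1, against 7.74 and 7.57 on day 0, a rise of 2.16 ± 0.09 (SE). Its partners Nhp2 and Gar1 rose by 1.91 and 1.36.

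The nucleolar chaperones and scaffolds were called in 4 of 4 cases. Nolc1, a chaperone of snoRNPs, rose by 1.92 and Gnl3 (nucleostemin), a GTP-binding nucleolar protein of dividing stem cells, by 1.35. Npm1 (nucleophosmin), a main structural protein of the nucleolus, had 11.01 and 11.24 on day 1, against 9.75 and 9.86 on day 0, a rise of 1.32 ± 0.13 (SE). Ncl (nucleolin) rose by 1.29. The RNA helicase gene Ddx21 rose by 1.68.

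Small subunit factors were called in 14 of 14 cases, with a median of 1.48 and a range of 1.33 (Tsr1) to 2.12 (Pno1). Pno1 works with the endonuclease Nob1 in the last cut of the small subunit's RNA. It had 11.34 and 11.41 on day 1, against 9.27 and 9.25 on day 0 (2.12 ± 0.09, SE). Large subunit factors were called in 12 of 13 cases, with a median of 1.54. The largest difference of all 43 genes was that of Mrto4, a placeholder for a ribosomal stalk protein during assembly, which had 7.11 and 6.85 on day 1, against 4.59 and 4.09 on day 0. Its 2.64 ± 0.19 (SE, limma adjusted p = 4.12e-08) is a lower bound, because its day 0 mean of 4.34 lay under the background of 5.31, the 95th percentile of the array values of olfactory receptor genes. Wdr12 had 9.06 and 9.25 on day 1, against 6.63 and 6.55 on day 0, a difference of 2.57 ± 0.11 (SE). It belongs with Pes1 and Bop1 to the PeBoW complex of large subunit maturation, and those partners rose by 1.33 and 1.54.

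The later days of induction ask whether the rise went on. The genes stayed high to day 15, and in each later step up to that day they changed by less than 2-fold. The number of the 43 genes called higher than on day 0 was 43 on day 3 (8.68% of all genes), 42 on day 5 (9.50%), 42 on day 7 (10.1%), 38 on day 11 (9.89%) and 35 on day 15 (10.0%). On each of these days 0 were called lower, against 8.94%, 9.75%, 9.85%, 9.64% and 8.83% of all genes called lower. At an unadjusted limma p under 0.05, 0 of the 43 were lower too, and the share of all genes under that rule was not counted. The median difference from day 0 was 1.68 on day 3, 1.71 on day 7, 1.43 on day 11 and 1.32 on day 15. At adjusted p under 0.05 with no minimum size, 43 of 43 were higher than on day 0 on each of days 1 to 15, against 27.8%, 34.5%, 36.0%, 32.9%, 33.0% and 32.3% of all genes. Of its highest rise, the median gene had covered 94.98% on day 1. The slowest were Rrs1 (49.1%), Npm1 (62.5%), Gar1 (62.6%) and Fbl (70.6%).

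Between neighbouring days no gene of the 43 was called by limma with the 2-fold limit. Over all genes the shares called higher and lower were 0.722% and 2.31% for day 3 against day 1, 0.791% and 0.361% for day 5 against day 3, 0.638% and 0.386% for day 7 against day 5, 1.83% and 1.23% for day 11 against day 7, and 1.66% and 0.247% for day 15 against day 11. At an unadjusted p under 0.05, 12 of the 43 genes were higher and 3 lower on day 3 than on day 1, against 24.4% and 18.9% of all genes. On day 5 against day 3 it was 1 higher and 15 lower (13.9% and 13.4% of all genes), and on day 7 against day 5 it was 8 higher (11.8% of all genes) and 0 lower (2735 of all 20233 genes). On day 11 against day 7 it was 0 higher and 39 lower (16.9% and 18.2% of all genes), and on day 15 against day 11 it was 0 and 8 (13.2% and 14.8%).

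Without a minimum size, 7 genes were higher on day 3 than on day 1 at adjusted p under 0.05 (16.8% of all genes). They were Npm1 (0.51), Gar1 (0.51), Fbl (0.35), Gnl3 (0.25), Noc2l (0.23), Ncl (0.23) and Nop56 (0.18). This count is near the share over all genes. Noc3l was lower (-0.19, 15.7% of all genes). On day 5 against day 3, 1 gene was higher, Gar1 (0.30, 7.57% of all genes), and 7 were lower (7.19% of all genes), most of all Rrp9 (-0.41). On day 7 against day 5, 3 genes were higher (6.15% of all genes), namely Utp18 (0.42), Fbl (0.39) and Nob1 (0.28). The step with the most small changes was day 11 against day 7, where 32 of the 43 genes were lower and 0 higher under that rule, against 13.0% lower over all genes, with a median of -0.34. The largest of these falls were those of Nop2, an RNA methyltransferase of the large subunit (-0.64), Polr1b (-0.62), Rrp9 (-0.62) and Rrp12, an assembly factor that acts in subunit export (-0.60). On day 15 against day 11, 2 genes were lower (7.03% of all genes), Dkc1 (-0.34) and Polr1a (-0.21).

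Among the genes with the largest differences on these days, Rrp9 had 10.41 and 10.47 on day 3, against 7.94 and 7.89 on day 0 (2.52 ± 0.07, SE). Mrto4 led on days 5, 7 and 15, with levels of 6.83 and 6.89 on day 5, 6.94 and 6.88 on day 7 and 6.62 and 6.58 on day 15. Against its day 0 level, under background, these are lower bounds of 2.52, 2.57 and 2.26. On day 11 Dkc1 had 9.97 and 9.88, against 7.74 and 7.57 on day 0, a difference of 2.27 ± 0.09 (SE), and that of Mrto4 was at least 2.26, so the pair cannot be ranked. Nhp2 followed Mrto4 and Dkc1 on day 15, with 10.38 and 10.32 against 8.46 and 8.60 on day 0 (1.82 ± 0.09, SE). The arrays of none of these day pairs overlapped, which is no separate evidence, since the genes were picked for the largest differences.

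**Figure D3:**
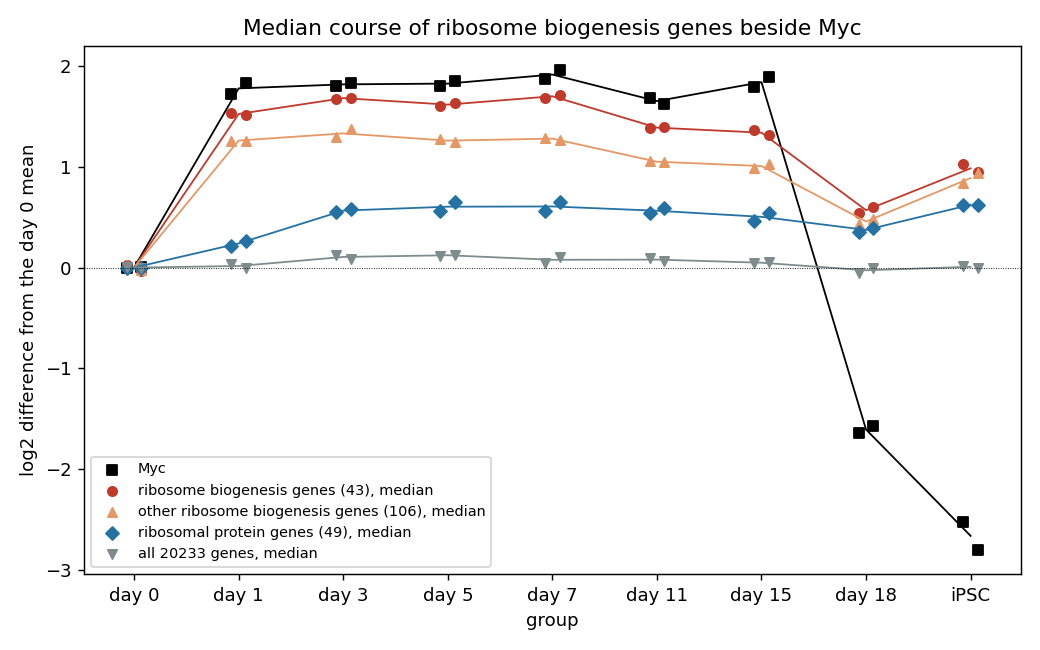
Median over genes of the log2 difference from the day 0 mean, 1 point per array, for the 43 ribosome biogenesis genes, other ribosome biogenesis genes, cytosolic ribosomal protein genes and all genes, with the difference of Myc alone, in time order with iPSC last. The 43 genes stand at 1.31 to 1.71 on days 1 to 15, at 0.54 and 0.60 on day 18 and at 1.03 and 0.94 in iPSC, while Myc lies under its day 0 level in the last 2 groups.

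The comparison of day 18 with day 15 shows what followed the withdrawal of doxycycline and vitamin C. Of the 43 genes, 12 were called lower on day 18 (4.07% of all genes) and 0 higher (4.67% of all genes; 0 of the 43 were higher at an unadjusted p under 0.05). The median difference was -0.69, against -0.06 for all genes. Without a minimum size 39 of the 43 were lower, against 27.0% of all genes, and the 4 that did not pass were Npm1 (-0.16), Ddx10 (-0.15), Dkc1 (-0.12) and Rrn3 (0.04). The arrays of Npm1, Dkc1 and Rrn3 overlapped between the days.

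Of the 12 called falls 8 were in large subunit maturation, where 8 of 13 genes were called lower, with a median of -1.04. In small subunit maturation it was 1 of 14 (median -0.68), in RNA polymerase I 1 of 4, in the chaperones and scaffolds 1 of 4, and in the box C/D and box H/ACA snoRNPs 0 of 4 and 0 of 3. The helicase gene Ddx21 was called lower too (-1.18). These counts by role are a description, and the difference between roles was not tested.

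Polr1e had the largest measured fall. It had 7.68 and 7.77 on day 18, against 9.35 and 9.33 on day 15, a difference of -1.62 ± 0.08 (SE, limma adjusted p = 3.24e-09). Mrto4 had 4.88 and 5.26 on day 18, against 6.62 and 6.58 on day 15, and its -1.53 ± 0.19 (SE) is a lower bound of the fall because the day 18 mean of 5.07 lay under background, so Mrto4 may have fallen further than Polr1e. Pno1 had 9.06 and 9.29 on day 18, against 10.63 and 10.53 on day 15 (-1.40 ± 0.09, SE). All of these arrays were separate between the days, which is no separate evidence, since the genes were picked for the largest falls. The window of Pno1 holds 1 E-box, in its transcribed part, and those of Polr1e and Mrto4 hold 0. The relation of the motif to the size of a change was not tested.

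The other large subunit genes called lower were Ebna1bp2 (-1.37), Bop1 (-1.30), Rrs1 (-1.18), Nip7 (-1.11), Wdr74 (-1.09), Wdr12 (-1.04) and Nop16 (-1.01), and among the scaffolds Nolc1 (-1.03). In the PeBoW complex Bop1 and Wdr12 were thus called and Pes1 was lower by a smaller amount (-0.54, limma adjusted p = 9.66e-05). Bop1 had 9.01 and 8.96 on day 18, against 10.25 and 10.33 on day 15. Rrs1 had 7.02 and 7.50 on day 18, against 8.31 and 8.57 on day 15, and its 2 day 18 arrays were the widest apart of the 43 genes in that group. Rrp9 stopped just short of the limit (-0.99).

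Markers of other cells moved in the same interval. Of the 15 fibroblast markers 10 were called higher on day 18 than on day 15, and their array medians were 8.05 and 9.07 on day 18, against 6.90 and 6.93 on day 15. Of the 14 pluripotency markers 12 were higher, with array medians of 10.04 and 10.26 on day 18, against 8.62 and 8.72 on day 15. Of the 12 keratinocyte markers 8 were lower, with array medians of 5.67 and 5.78 on day 18, against 9.09 and 9.21 on day 15, and 5 of them lay under background on day 18, against 1 on day 15. Of 11 macrophage markers 1 was higher and 1 lower. The part of these changes in the falls of the ribosome biogenesis genes was not tested. Of 12 cell cycle genes measured, 0 were called in either direction (limma; 3 higher and 2 lower at an unadjusted p under 0.05), with a median difference of 0.07.

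Compared with day 0, the day 18 cells kept part of the rise. Only Dkc1 and Npm1 of the 43 genes were called higher (8.87% of all genes), and 0 were called lower (8.64% of all genes; 3 at an unadjusted p under 0.05). Dkc1 had 9.38 and 9.54 on day 18, against 7.74 and 7.57 on day 0 (1.80 ± 0.09, SE). Npm1 had 11.26 and 11.56 on day 18, against 9.75 and 9.86 on day 0 (1.60 ± 0.13, SE). The median difference was 0.57, and the median gene kept 47.2% of its day 15 difference from day 0. The count of 2 depended on single arrays: it was 5 without day 18 replicate 1, 4 without either day 0 array, and 6 after another quantile normalization. With no minimum size 35 were higher (28.7% of all genes) and 3 lower (29.0% of all genes), and the 3 were Rrs1 (-0.48), Polr1e (-0.23) and Bop1 (-0.18). The genes not passing were Rrp12 (0.16), Nip7 (0.18), Utp20 (0.12), Bysl (0.09) and Pno1 (-0.08).

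**Figure D4:**
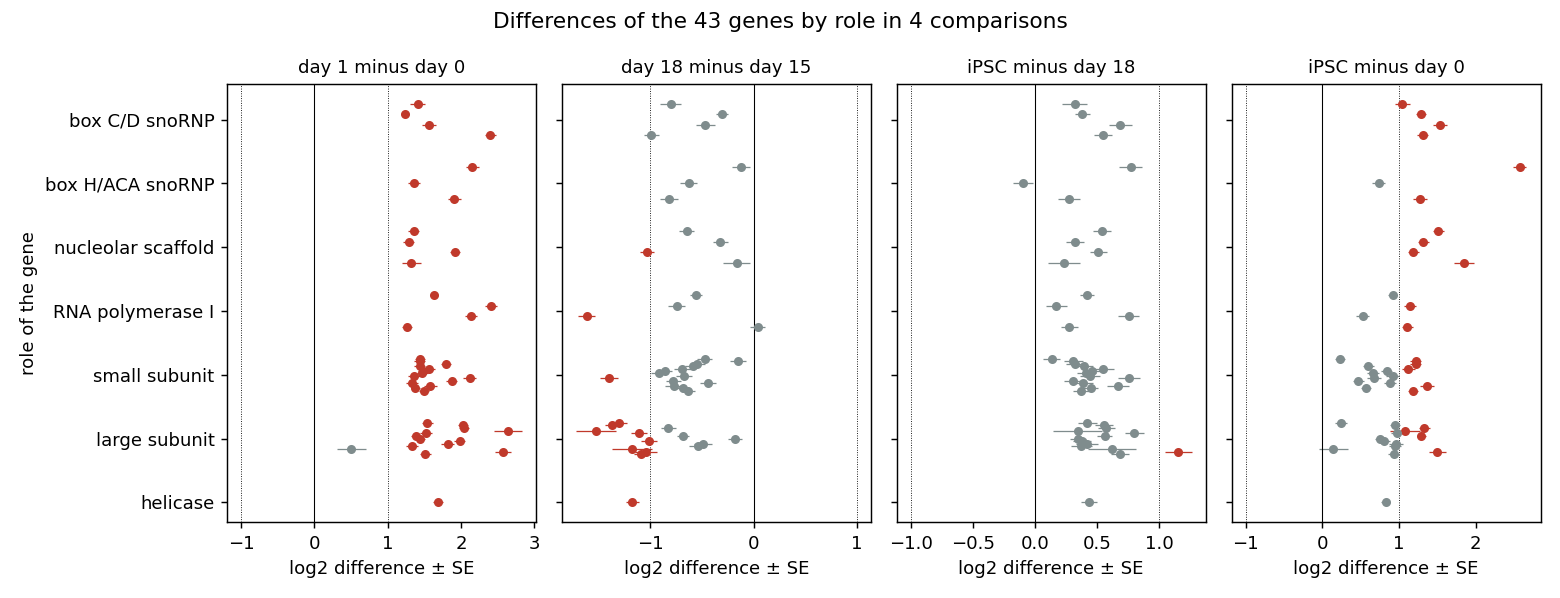
Log2 difference with its SE for each of the 43 genes, by role, in 4 comparisons (day 1 minus day 0, day 18 minus day 15, iPSC minus day 18 and iPSC minus day 0), with called genes in red, others in grey and dotted lines at -1 and 1. All genes lie right of 0 in the day 1 panel, and in the day 18 panel most points left of -1 are in the large subunit row.

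The iPSC line stood between the day 0 fibroblasts and the induced cells. Against day 0, 21 of the 43 genes were called higher in iPSC (10.1% of all genes) and 0 lower (9.79% of all genes; 0 at an unadjusted p under 0.05), with a median difference of 0.98. With no minimum size 42 were higher (30.2% of all genes). In the same comparison 10 of the 15 fibroblast markers were called lower and 0 higher, and 14 of the 14 pluripotency markers higher; their part in the result was not tested. The median gene had 75.8% of its day 15 difference from day 0. In 34 of the 43 genes the iPSC mean was under the day 15 mean (52.2% of all genes). By role, 4 of 4 box C/D snoRNP genes, 4 of 4 chaperones and scaffolds, 2 of 3 box H/ACA genes and 2 of 4 RNA polymerase I genes were called. In the small and large subunit groups it was 5 of 14 and 4 of 13.

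Dkc1 had its highest level of all groups in iPSC, the only one of the 43 genes to do so, at 10.12 and 10.33, against 7.74 and 7.57 on day 0 (2.57 ± 0.09, SE, limma adjusted p = 1.80e-11). It is also the only gene of the 43 on the X chromosome. Xist, the RNA that coats the inactive X chromosome, averaged 5.01 ± 0.13 on day 0 and 6.28 ± 0.13 on day 11. It averaged 7.42 ± 0.41 on day 15, 6.45 ± 0.03 on day 18 and 8.53 ± 0.10 in iPSC (SD, n = 2 each). Dkc1 averaged 9.92 on day 11, 9.58 on day 15 and 9.46 on day 18. The Y-linked gene Eif2s3y averaged 4.24 ± 0.13 on day 0, 8.53 ± 0.01 on day 18 and 6.25 ± 0.14 in iPSC. The day 0 means of Xist and Eif2s3y lay under the background of 5.31, so those levels are limited by signal. The part of the sex chromosomes in the level of Dkc1 was not tested.

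Npm1 had 11.60 and 11.69 in iPSC, against 9.75 and 9.86 on day 0 (1.84 ± 0.13, SE). Nop58 had 10.53 and 10.54 in iPSC, against 9.02 and 8.98 on day 0 (1.53 ± 0.09, SE). Gnl3 followed at 1.51 and Wdr12 at 1.50. At the other end, Rrs1 had 7.58 and 8.18 in iPSC, against 7.74 and 7.73 on day 0, with overlapping arrays and a difference of 0.15 ± 0.19 (SE, limma adjusted p = 0.563). Bysl and Bop1 stood 0.23 and 0.24 above day 0.

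Set against day 18, Wdr12 alone was called higher in iPSC (1.57% of all genes) and 0 genes were called lower (2.84% of all genes; 0 at an unadjusted p under 0.05). Wdr12 had 8.10 and 8.06 in iPSC, against 7.10 and 6.75 on day 18, a difference of 1.16 ± 0.11 (SE, limma adjusted p = 2.16e-06). It was not called in the fit without day 18 replicate 2. The median difference was 0.42, against 0.05 for all genes, and 38 of the 43 were higher with no minimum size (22.3% of all genes). Fibroblast markers moved between these groups too: 5 of the 15 were called higher in iPSC, among them Postn (3.20), Dcn (2.47) and Lum (2.43), and Pdgfra (-1.94) and S100a4 (-1.24) were lower, with array medians of 8.77 and 9.09 in iPSC, against 8.05 and 9.07 on day 18. Of the 12 keratinocyte markers 5 were lower in iPSC and 0 higher, with array medians of 5.29 and 5.41 in iPSC, against 5.67 and 5.78 on day 18. Their part in the differences of the ribosome biogenesis genes was not tested, nor was that of the established line and its medium with 2i. The ribosome biogenesis genes that did not pass were Npm1 (0.24), Mrto4 (0.34), Polr1b (0.17), Bysl (0.14) and Gar1 (-0.09).

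Over the 9 groups, 39 of the 43 genes had their lowest mean on day 0 (90.7%, against 24.9% of all genes). Mrto4 is counted there, but it lay under background on days 0 and 18, so the order of those days is not set for it. In 40 of them day 18 was the lowest of the other 8 groups (93.0%, against 28.6% of all genes), and in 36 both held (83.7%, against 8.39%). The exceptions at the bottom were Polr1e, Pno1, Bop1 and Rrs1, lowest on day 18. The highest mean fell on days 1 to 7 in 42 genes (47.0% of all genes). It was on day 1 in 11, on day 3 in 14, on day 5 in 5 and on day 7 in 12. The roles were spread over these days: of the 14 small subunit genes 6 were highest on day 1, 5 on day 3 and 3 on day 7, and of the 13 large subunit genes 4 were highest on day 1, 4 on day 3, 2 on day 5 and 3 on day 7. The day of the maximum was within the spread of the arrays in several genes. In Polr1b the means were 11.20 ± 0.01 on day 1, 11.21 ± 0.03 on day 3 and 11.20 ± 0.06 on day 7 (SD, n = 2 each). Nop56 had 12.03 ± 0.05 on day 3 and 12.03 ± 0.04 on day 7. Ebna1bp2 had 10.12 ± 0.01 on day 3 and 10.12 ± 0.03 on day 5. The counts by day of the maximum are thus a description of means, and the order of these days was not tested.

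Myc itself had 10.81 and 10.92 on day 1, against 9.09 and 9.09 on day 0 (1.78 ± 0.09, SE, limma adjusted p = 8.11e-10). Its group mean stayed between 10.74 and 11.00 on days 3 to 15. On day 18 it had 7.44 and 7.52, against 10.88 and 10.98 on day 15 (-3.45 ± 0.09, SE). In iPSC it had 6.57 and 6.28, against 7.44 and 7.52 on day 18 (-1.05 ± 0.09, SE), and it stood 2.66 log2 units under day 0. Whether the probe set also reads the induced c-Myc copy was not tested. The paralogue Mycn averaged 5.91 ± 0.09 on day 0 and 7.82 ± 0.08 on day 15, and it was higher again on day 18 (9.47 ± 0.16) and in iPSC (9.54 ± 0.13; SD, n = 2 each). The paralogue Mycl averaged 6.60 ± 0.06 on day 0, 7.06 ± 0.04 on day 18 and 7.69 ± 0.10 in iPSC (SD, n = 2 each). Repressors that compete with Myc for its partner Max did not move one way: in iPSC, against day 0, the means were 7.60 against 9.69 for Mxd4, 8.97 against 8.03 for Mxi1, 7.18 against 7.56 for Mxd1, 6.76 against 6.73 for Mxd3 and 7.47 against 7.52 for Mnt. For Mga, which also binds Max, they were 10.47 against 9.13, and it was already at 10.29 on day 18.

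Myc and the ribosome biogenesis genes were both high from day 1 to day 15 and both lower on day 18, but in iPSC Myc was lower still and the genes were higher than on day 18. Over the means of the 7 groups from day 0 to day 15, Pearson's r with Myc was 0.80 to 0.99, with a median of 0.97, and all 43 genes were over 0.5, against 32.9% of all genes. Over the 9 groups the median r was 0.63 (0.15 to 0.86), with 34 of 43 over 0.5 (79.1%, against 29.5% of all genes). Without day 0 the median over the other 8 groups was 0.80 and 40 were over 0.5 (93.0%, against 34.6% of all genes). These points are means of arrays normalized together, and the days may not be independent of each other, so r is a description. In the 7 groups Myc was at 9.09 on day 0 and between 10.74 and 11.00 in the other 6. Over those groups r thus largely restates the rise from day 0. Outside them Myc was at 7.48 on day 18 and 6.43 in iPSC.

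The genes closest to Myc over the 9 groups were Bop1 (r = 0.86), Polr1e (0.82), Rrs1 (0.82) and Pno1 (0.77). They are the same 4 genes that had their lowest mean on day 18. Both lists come from the same group means, and Myc too was under its day 0 mean on day 18, so the match is not separate evidence. The farthest were Npm1 (0.16) and Dkc1 (0.15), followed by Rrn3 (0.19). In iPSC, where Myc was at its lowest, 42 of the 43 genes had a higher mean than on day 18 (58.7% of all genes). A mean under that of day 0 was found in 0 of them, against 49.2% of all genes. With Mycn the median r over the 9 groups was -0.36, and 0 of the 43 genes were over 0.5 (18.1% of all genes).

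**Figure D5:**
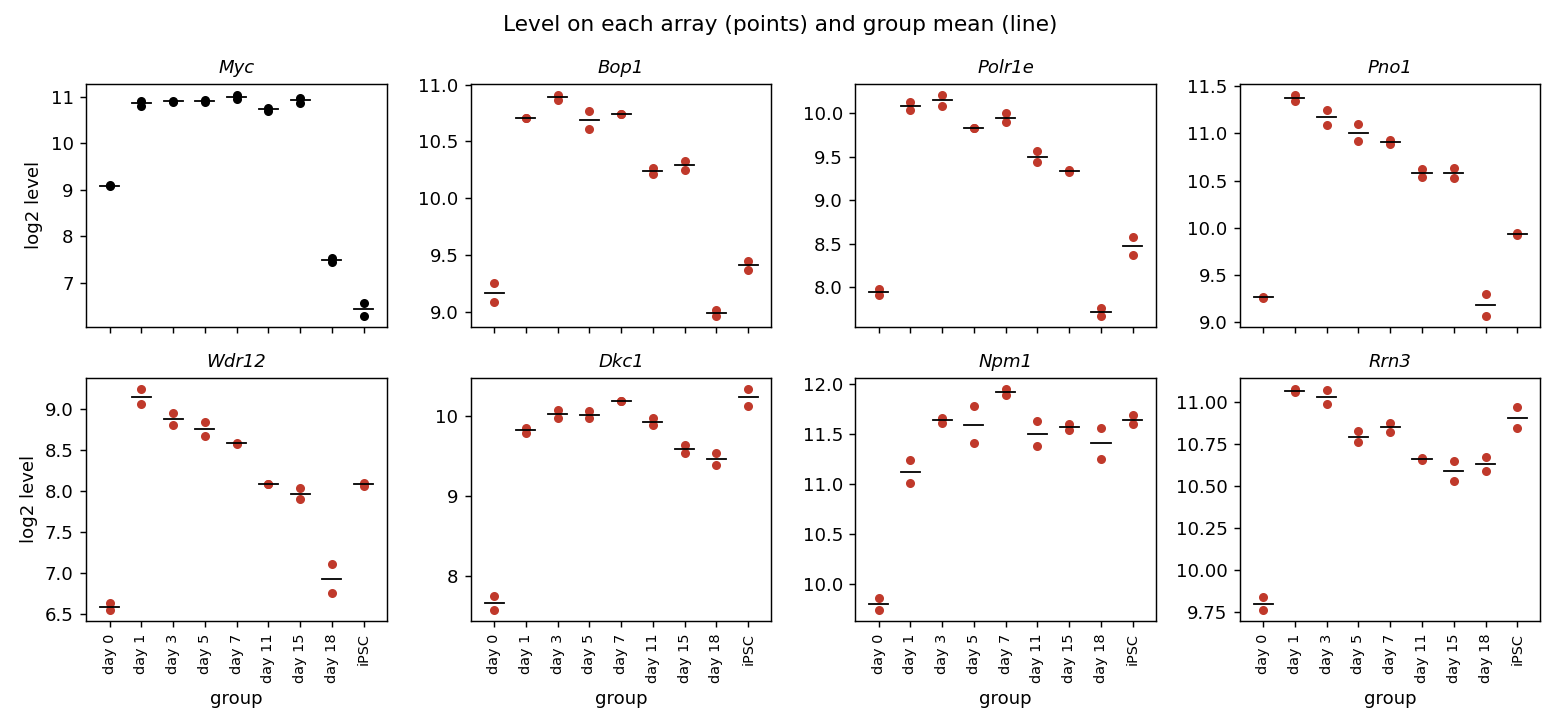
Log2 level on each array (points) and group mean (lines) of Myc and of 7 ribosome biogenesis genes, in time order with iPSC last, each panel with its own axis. Bop1, Polr1e and Pno1 return on day 18 to about their day 0 levels or below, Wdr12 is low on day 18 and high again in iPSC, and Dkc1, Npm1 and Rrn3 stay high on day 18 and in iPSC.

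A wider list of other ribosome biogenesis genes, of which 106 were measured, moved in the same directions in the main comparisons, with smaller medians. On day 1, 72 of the 106 were called higher than on day 0 (7.62% of all genes), with a median of 1.26. Called lower were 0 (6.54% of all genes), and 1 was lower at an unadjusted p under 0.05 (limma). On day 18, 0 were called higher than on day 15 (4.67% of all genes; 3 at an unadjusted limma p under 0.05). The median was -0.54, and 8 were called lower (4.07% of all genes). They were the small subunit processome genes Utp11 (-1.30), Utp14a (-1.11) and Tbl3 (-1.03), the box H/ACA gene Nop10 (-1.21), Aatf (-1.16), the exosome gene Exosc4 (-1.15), the large subunit factor gene Eif6 (-1.06) and Polr1d (-1.04), a subunit shared by RNA polymerases I and III. In iPSC 41 of the 106 were called higher than on day 0 (10.1% of all genes), with a median of 0.90.

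Proteins of the finished ribosome had smaller medians still. Of 49 cytosolic ribosomal protein genes 5 were called higher on day 1 than on day 0 (7.62% of all genes), with a median of 0.25. On day 18 against day 15, 3 were higher (4.67% of all genes) and 1 lower (4.07% of all genes), with a median of -0.07. These counts are near the shares over all genes. In iPSC 10 of the 49 were higher than on day 0 (10.1% of all genes; median 0.64), led by Rpl39l, a paralogue of Rpl39, at 3.71. Of 76 mitochondrial ribosomal protein genes 24 were higher on day 1 than on day 0 (7.62% of all genes). On day 18, 5 were lower than on day 15 (4.07% of all genes), and 9 were higher in iPSC than on day 0 (10.1% of all genes). The counts for day 18 and iPSC are near those shares. Of 17 other known Myc targets 9 were higher on day 1 than on day 0 (7.62% of all genes; median 1.03). On day 18, 4 were lower than on day 15 (4.07% of all genes), namely Nme1, Ccnd2, Srm and Ppat. Of the 12 cell cycle genes, by contrast, 10 were higher on day 1 than on day 0, 10 on day 18 and 11 in iPSC. Over all genes those shares were 7.62%, 8.87% and 10.1%.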

How the data were processed

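Total RNA from 18 samples was hybridised to Affymetrix arrays. Per the submitters' processing notes the deposited log2 levels were computed with RMA, which corrects background, quantile normalizes the arrays and summarises probe sets. Its version, the chip definition and the build: not given in the sources used here. Of 29643 probe sets, 27260 matched 1 symbol in a RefSeq gene table by accession, 0 matched several and 2383 matched none, which gave 20233 genes. Each gene was represented by its probe set of highest mean, and 0 value columns were left unused. The 1065 olfactory receptor genes gave the background level of 5.31 (95th percentile of their array values).

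All genes were fitted with limma 3.58.1 (R 4.3.3), with a mean per group, 1 spread per gene over the 18 arrays (9 residual degrees of freedom, prior 4.25) and Benjamini-Hochberg adjustment within each comparison. The fit was tested on simulated data. The median SE of a difference was 0.0976, and the number of arrays limits the precision. A gene was called at an adjusted p under 0.05 and a log2 difference of at least 1. Shares over all genes at an unadjusted p are given only for neighbouring days up to day 15. The members, gene lists, comparisons and rules were chosen with earlier results of these data known. Values per array are given for the called genes with the largest differences in each comparison (3 each way for days 1 and 15 and iPSC against day 0, day 18 against day 15 and iPSC against day 18, and 1 for the others), for the smallest and largest range, and for the 4 highest and 2 lowest correlations with Myc. Since 1 spread per gene was pooled, SEs in comparisons with day 18, whose arrays differed more, are too small for genes that were uneven on that day. Alternatives were other fold limits, spreads, normalizations, probe set rules and filters, a replicate block, left-out arrays and the pair of groups alone.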

Additional observations from a re-analysis of the deposited data

How the results depend on the processing

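Counts of the 43 genes called higher and lower were recomputed in 15 comparisons under other settings. Leaving out each array in turn gave 42 to 42 genes higher on day 1 than on day 0, 42 to 43 on day 3, 42 to 43 on day 5, 42 to 43 on day 7, 35 to 38 on day 11, 35 to 36 on day 15, 2 to 5 on day 18 and 19 to 23 in iPSC, and 10 to 13 lower on day 18 than on day 15. For iPSC against day 18 it gave 0 to 1 higher, with 0 without day 18 replicate 2. For day 18 against day 0 the count was 5 without day 18 replicate 1, 4 without day 0 replicate 1 and 4 without day 0 replicate 2. With another quantile normalization 6 genes were higher on day 18 than on day 0. With no minimum fold, by the construction of that rule, 35 were higher and 3 lower on day 18 than on day 0, 42 were higher in iPSC than on day 0, 7 higher and 1 lower on day 3 than on day 1, 1 higher and 7 lower on day 5 than on day 3, and 3 higher on day 7 than on day 5. Under it 32 were lower on day 11 than on day 7, 2 lower on day 15 than on day 11, 39 lower on day 18 than on day 15 and 38 higher in iPSC than on day 18. No other alternative moved a count by over 1.5 times, among them array weights, a trended robust prior, the mean of probe sets, genes above background alone, the pair of groups alone and, added after seeing the data, day 18 arrays left out of the fit. Apart from the rule without a fold limit, the cause of these changes was not tested.

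The replicate numbers did not pair the arrays: same-numbered arrays of 36 pairs of groups had deviations correlated at -0.19 to 0.15, with 6 pairs over 0.1. With the replicate number as a block 42 genes were higher on day 1 than on day 0, as without it, and the block moved no count by over 1.5 times. Levels of Mrto4 on days 0 and 18 lay under background, so its differences there are limited by signal.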
